A study of Ovis aries with 6 samples.

Results

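The Kruppel-like factors (KLFs) KLF2, KLF3, KLF4, KLF6, KLF7, KLF9, KLF10 and KLF11 were read, by gene symbol, from a table of raw counts for 18865 genes, and each of the 8 was found under its symbol. The libraries hold messenger RNA of sheep (Ovis aries) valve endothelial cells (VECs), which form the surface of the mitral leaflets. Cells spent 24 h in plasma of sheep that had had a myocardial infarction (post-MI plasma, 3 libraries) or in plasma of naive sheep (naive plasma, 3 libraries). The labels give neither breed, sex nor age. Nor do they say if replicates are separate cultures, cell donors or plasma donors, so p-values here reflect only how far these libraries scatter, and that scatter may be technical. The series concerns endothelial-to-mesenchymal transition of valve endothelium after infarction, and the comparison of the plasmas asks what post-MI plasma does to these cells.

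KLF proteins are transcription factors that bind GC-rich and CACCC-like DNA through zinc fingers at their C-terminal end, while the rest of the protein differs between members and either activates or represses genes. In endothelium KLF2 and KLF4 are switched on by steady laminar flow through the ERK5 kinase and MEF2 factors, and they favour an anticoagulant, vasodilating and anti-inflammatory state. KLF10 and KLF11 were named as early genes of TGF-beta, KLF9 responds to glucocorticoids and thyroid hormone, KLF6 responds early to injury, and KLF3 represses genes through the CtBP corepressors.

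Total counts were 14858472 to 18747848 in the post-MI libraries and 17446474 to 20672794 in the naive libraries, and 3 counts, the limit that a count of 0 allows, corresponded to at most 0.205 CPM (counts scaled to library size). On the first principal component, which carried 59.2% of the variance among the 500 genes that varied most, the first naive replicate was far from the rest, at -52.3, against values between -0.50 and 18.5 elsewhere. The third post-MI replicate also stood apart, with 40 genes at over 2 log2 units above each other library. All 10 endothelial markers were detected, with PECAM1 at 968 to 1407 CPM in post-MI and 889 to 1289 CPM in naive libraries (the marker genes given by name here were chosen after their values were seen). Their log2 fold changes were positive for 9 and negative for 1 (median 0.45), against a median of -0.014 over all genes tested. Of these 10 markers 4 had an unadjusted p under 0.05 by edgeR, all higher with post-MI plasma, where 8.68% of all genes passed that limit. The edgeR test called 0 of them, and 0% of all genes. The groups of 2 of the 10, ROBO4 and CLDN5, did not overlap, where 16.1% of all genes did not. ROBO4, an endothelial guidance receptor, was at 43.8, 56.1 and 21.5 CPM in post-MI replicates 1, 2 and 3, against 17.3, 11.5 and 20.3 CPM in naive replicates 1, 2 and 3, and DESeq2 called it (adjusted p = 0.0452). CLDN5, the endothelial tight junction claudin, was at 14.1, 20.2 and 5.14 CPM in post-MI replicates 1, 2 and 3, against 0.200, 3.53 and 4.42 CPM in naive replicates 1, 2 and 3. Markers of fibroblasts and valve interstitial cells summed to 14047 to 18669 CPM in post-MI and 10968 to 20543 CPM in naive libraries, and those of smooth muscle and pericytes to 4689 to 6354 CPM in post-MI and 992 to 5177 CPM in naive libraries. Of the leukocyte markers CD14, at 22.6 to 32.4 CPM in post-MI and 25.9 to 41.4 CPM in naive libraries, made up most of the sum, while PTPRC (CD45) was at 0.643 to 1.33 CPM in post-MI and 0.141 to 0.347 CPM in naive libraries, and TYROBP was at 0 in all but naive replicate 2. The median log2 fold change of the tested markers was -0.40 for fibroblasts and valve interstitial cells (9 genes), 0.76 for smooth muscle and pericytes (7) and 0.57 for lymphatic endothelium (3), and 2 of the 3 tested leukocyte markers had a positive value. The part of the endothelial and other markers in the KLF values was not tested.

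In VECs given post-MI plasma the flow-responsive pair KLF2 and KLF4 had the lowest levels among the tested KLF genes relative to naive plasma, KLF11 had the highest, and KLF3, KLF6, KLF7 and KLF9 lay within 0.36 of no difference on the log2 scale. KLF2 stood at 0.32 times and KLF4 at 0.39 times its naive mean, and KLF11 at 1.95 times. All 8 members passed the filter on low counts. The edgeR quasi-likelihood test with Benjamini-Hochberg adjustment over 14326 genes called 0 of the 8, against 0% of all genes tested. At an unadjusted p under 0.05 it gave 3 of the 8 (KLF2, KLF4 and KLF11), where 8.68% of all genes passed the same limit. limma-voom also called 0 of the 8 (0% of all genes, and 8.27% at an unadjusted p under 0.05), while the DESeq2 Wald test called KLF2 alone, where 1.51% of its genes were called. Levels of the groups did not overlap for 2 of the 8, both lower with post-MI plasma, where 16.1% of all genes did not overlap, 7.82% in the lower and 8.32% in the higher direction. The sign of the log2 fold change was negative for 5 of the 8 members, and for 52.1% of all genes. It was negative for 1 of the 10 endothelial markers. Since these are bulk libraries, fewer cells of a type and less RNA per cell cannot be told apart.

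KLF2, the factor most closely tied to flow in endothelium, was at 4.93, 7.58 and 8.77 CPM in post-MI replicates 1, 2 and 3, against 24.1, 11.6 and 30.9 CPM in naive replicates 1, 2 and 3. Every post-MI library lay below every naive library, and naive replicate 2 was the nearest to the post-MI libraries. Means were 7.10 ± 1.97 CPM with post-MI plasma and 22.2 ± 9.81 CPM with naive plasma (SD, n = 3 each). The log2 fold change was -1.65 ± 0.39 (SE, 95% interval -2.56 to -0.73), with an adjusted p of 0.363 by edgeR, 0.491 by limma-voom and 0.00629 by DESeq2. Among all 14326 genes tested, the KLF2 log2 fold change was the 119th from the lowest and its p ranked 143. The naive libraries thus spread over 11.6 to 30.9 CPM, and the SD of log2 CPM within the naive group, 0.73, was at the 88.5th percentile of all genes.

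With single libraries left out, the KLF2 log2 fold change by edgeR was lowest at -1.96, in the fit without naive replicate 2, and highest at -1.33, in the fit without naive replicate 3. It was -1.58 with naive replicate 1 dropped, -1.83 with post-MI replicate 3 dropped and -1.76 with both dropped. The DESeq2 call was lost without post-MI replicate 1 (adjusted p = 0.201), post-MI replicate 2 (0.0799) or naive replicate 3 (0.0860).

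KLF4, which overlaps with KLF2 in its endothelial target genes, was at 12.0, 4.64 and 13.3 CPM in post-MI replicates 1, 2 and 3, against 38.7, 24.1 and 14.0 CPM in naive replicates 1, 2 and 3. The groups did not overlap, but post-MI replicate 3 and naive replicate 3 lay close together. From 230 and 298 reads, their exact 95% Poisson intervals, which cover counting error only, ran over 11.6 to 15.1 CPM for the post-MI library and 12.5 to 15.7 CPM for the naive one. Means were 9.96 ± 4.65 CPM with post-MI plasma and 25.6 ± 12.4 CPM with naive plasma (SD, n = 3 each), which gave a log2 fold change of -1.36 ± 0.48 (SE, 95% interval -2.48 to -0.23). The adjusted p was 0.558 by edgeR and 0.145 by DESeq2. Without naive replicate 1 the log2 fold change was -0.92 and without post-MI replicate 3 it was -1.61, and the fit without both gave -1.16. DESeq2 called KLF4 in 1 of its 6 fits without a single library, that without naive replicate 3 (adjusted p = 0.0357).

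**Figure D1:**
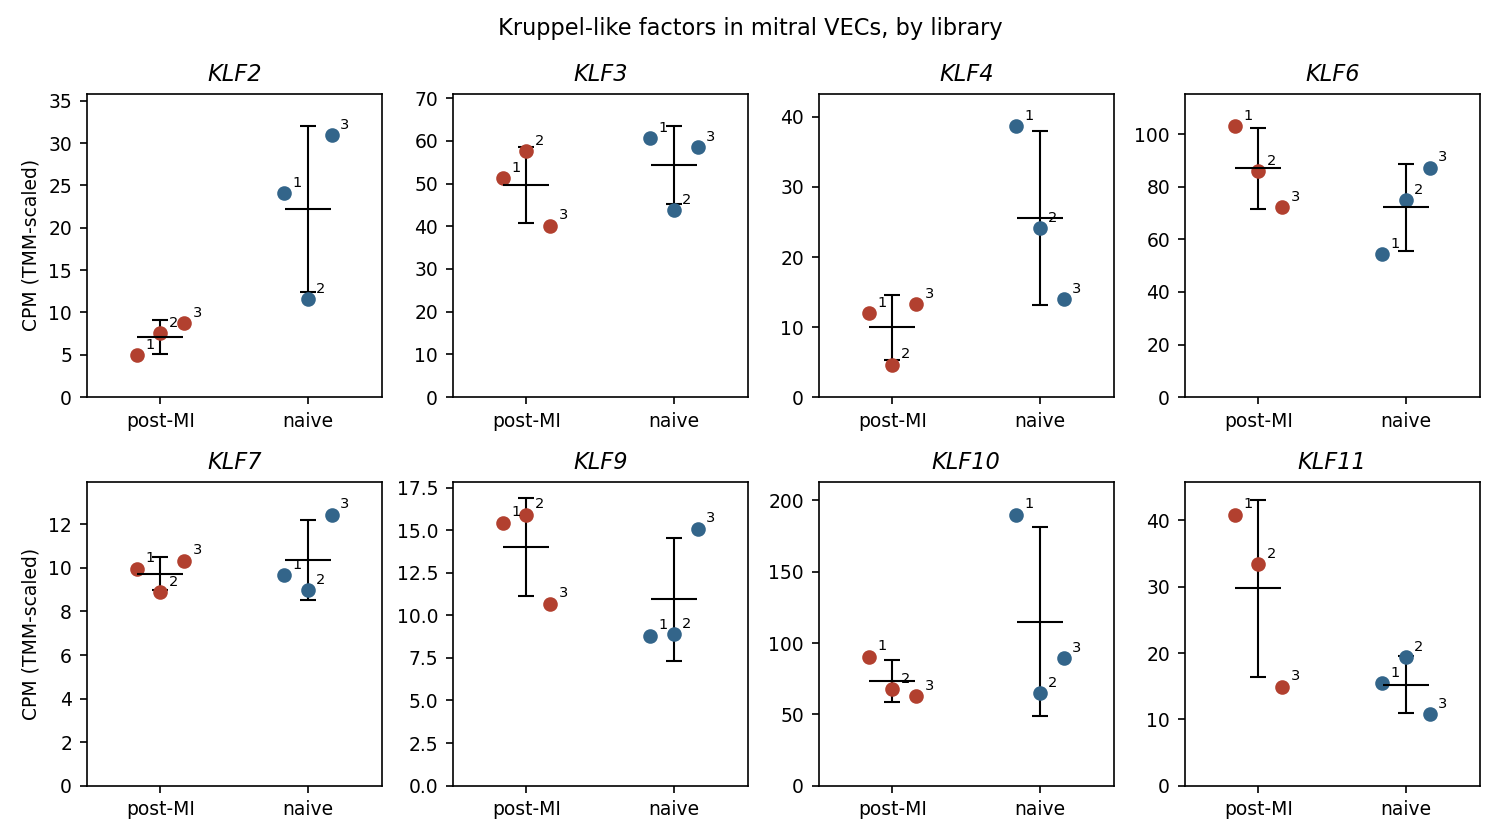
Level of each KLF gene in CPM (linear axis from 0, library sizes scaled by TMM) in the post-MI and naive libraries, with replicate numbers beside the points and bars for the mean ± SD of 3 libraries. The post-MI points of KLF2 (4.93 to 8.77 CPM) lie below its naive points (11.6 to 30.9 CPM), and those of KLF4 (4.64 to 13.3 CPM) below 14.0 to 38.7 CPM, while the groups overlap in the other panels.

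The paired TGF-beta early genes differed from each other. KLF11, a repressor that works with the SIN3A corepressor, was at 40.9, 33.4 and 14.95 CPM in post-MI replicates 1, 2 and 3, against 15.5, 19.4 and 10.8 CPM in naive replicates 1, 2 and 3. Post-MI replicates 1 and 2 lay above every naive library, and post-MI replicate 3 lay below naive replicates 1 and 2. The log2 fold change was 0.97 ± 0.38 (SE, 95% interval 0.062 to 1.87; edgeR adjusted p = 0.566, DESeq2 adjusted p = 0.313). Without post-MI replicate 3 it was 1.29, the groups no longer overlapped, and DESeq2 called the gene (adjusted p = 0.00703), while edgeR did not (adjusted p = 0.345). With naive replicate 1 dropped, the KLF11 log2 fold change was 0.995, and with naive replicate 2 dropped it was 1.18. Dropping any of the other libraries lowered it. It was lowest at 0.67 with post-MI replicate 1 dropped, where the unadjusted p by edgeR was 0.146. Dropping naive replicate 3 gave 0.77, and dropping post-MI replicate 2 gave 0.88. DESeq2 called KLF11 in no other fit with a single library dropped.

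KLF10, the closest relative of KLF11 among these members, was at 90.5, 67.9 and 62.8 CPM in post-MI replicates 1, 2 and 3, against 190.1, 65.1 and 89.2 CPM in naive replicates 1, 2 and 3. Naive replicate 1 alone stood out, and the other 5 libraries shared a range of 62.8 to 90.5 CPM. The log2 fold change was -0.64 ± 0.39 (SE, edgeR adjusted p = 0.624). With naive replicate 1 dropped it was -0.056. Without both naive replicate 1 and post-MI replicate 3 its sign turned, at 0.052.

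KLF6, KLF9, KLF3 and KLF7 had groups that overlapped. KLF6, an injury-responsive activator, was at 103, 85.9 and 72.3 CPM in post-MI replicates 1, 2 and 3, against 54.5, 75.0 and 87.3 CPM in naive replicates 1, 2 and 3, and its lowest level was in naive replicate 1. Its log2 fold change was 0.27 ± 0.22 (SE, 95% interval -0.24 to 0.78; edgeR adjusted p = 0.702), and 0.11 without naive replicate 1. KLF9 was at 15.4, 15.9 and 10.7 CPM in post-MI replicates 1, 2 and 3, against 8.81, 8.92 and 15.1 CPM in naive replicates 1, 2 and 3. In each group 1 library, replicate 3, thus lay with the other group, and the log2 fold change was 0.36 ± 0.28 (SE, 95% interval -0.29 to 1.004; edgeR adjusted p = 0.690). Without naive replicate 3 it was 0.66.

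KLF3 and KLF7 were the least variable members. KLF3 was at 51.3, 57.6 and 40.2 CPM in post-MI replicates 1, 2 and 3, against 60.7, 43.8 and 58.5 CPM in naive replicates 1, 2 and 3, which gave a log2 fold change of -0.13 ± 0.19 (SE, 95% interval -0.58 to 0.32; edgeR adjusted p = 0.845). KLF7, a widely expressed factor known from nerve and fat cells, was at 9.97, 8.88 and 10.3 CPM in post-MI replicates 1, 2 and 3, against 9.66, 8.97 and 12.5 CPM in naive replicates 1, 2 and 3, which gave a log2 fold change of -0.091 ± 0.19 (SE, 95% interval -0.54 to 0.36; edgeR adjusted p = 0.896). For both, the highest library was at most 1.51 times the lowest, against 6.27 times for KLF2 and 8.33 times for KLF4. The sign of KLF3 turned to 0.0044 without post-MI replicate 3 and that of KLF7 to 0.063 without naive replicate 3. In the sheep assembly ARS-UI_Ramb_v3.0, used for names alone, a long non-coding RNA overlaps KLF3, and the strand setting of the counting is not given in the sources used here, so reads of both genes may not be told apart.

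**Figure D2:**
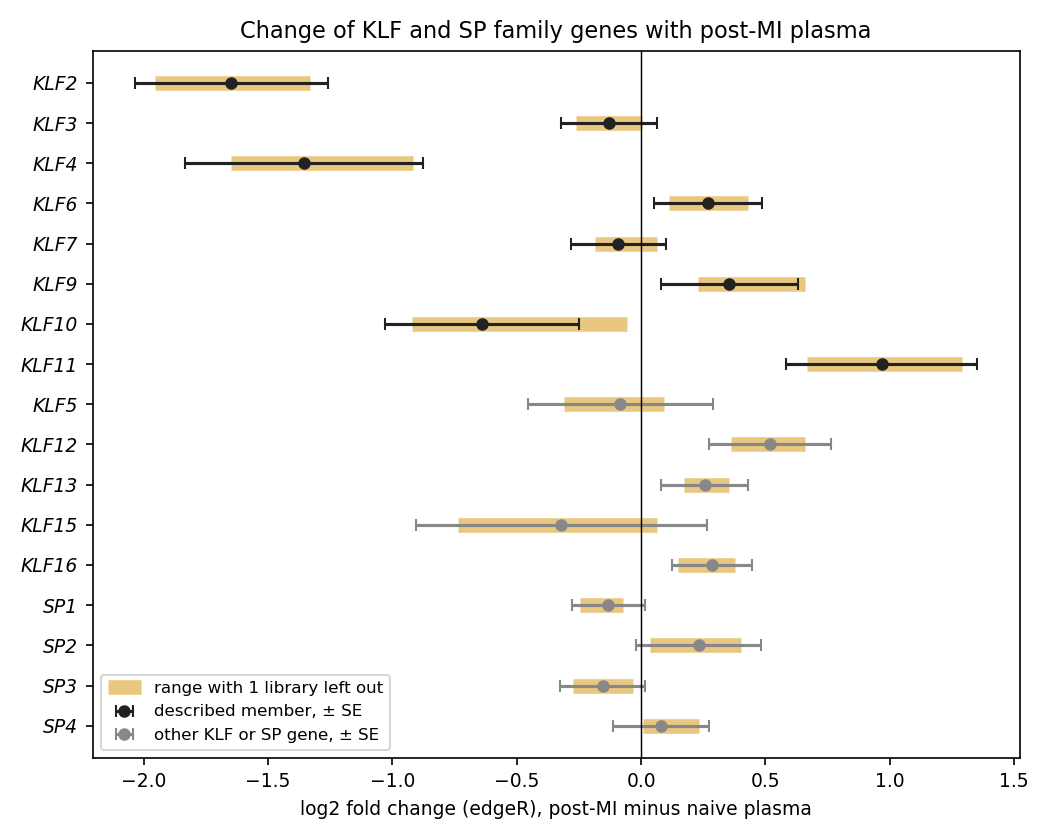
Log2 fold change by edgeR (x axis, post-MI minus naive plasma) of the 8 members (black) and of the other KLF and SP genes that passed the count filter (grey), with SE bars, over the range of the fits that leave out 1 library (yellow). KLF2 and KLF4 lie lowest at -1.65 and -1.36, KLF11 highest at 0.97, and the yellow range of KLF10 runs to -0.056.

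The members did not share one pattern over the 6 libraries. Naive replicate 1, which stood apart over all genes, had the highest level of KLF3, KLF4 and KLF10 and the lowest of KLF6 and KLF9. Naive replicate 3 had the highest level of KLF2 and KLF7 and the lowest of KLF11. Post-MI replicate 1 was the reverse of naive replicate 3 for KLF2 and KLF11, being lowest in the first and highest in the second. Post-MI replicate 2 held the lowest KLF4 and KLF7 and the highest KLF9, and post-MI replicate 3 the lowest KLF3 and KLF10.

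Likeness between members was measured as the mean absolute difference of their log2 CPM, each centred on its mean over the 6 libraries, and is a description of these libraries. Of the 28 pairs the most alike were KLF6 and KLF9, at 0.16, and KLF3 and KLF7, at 0.20. KLF2 and KLF4 differed by 0.80, while the median difference of KLF2 from 10986 other genes was 0.82 and that of KLF4 was 0.75. KLF10 and KLF11 differed by 0.81. KLF10 was the member nearest to both KLF2 and KLF4, at 0.58 from each, and KLF11 was the farthest from both, at 1.22 from each.

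**Figure D3:**
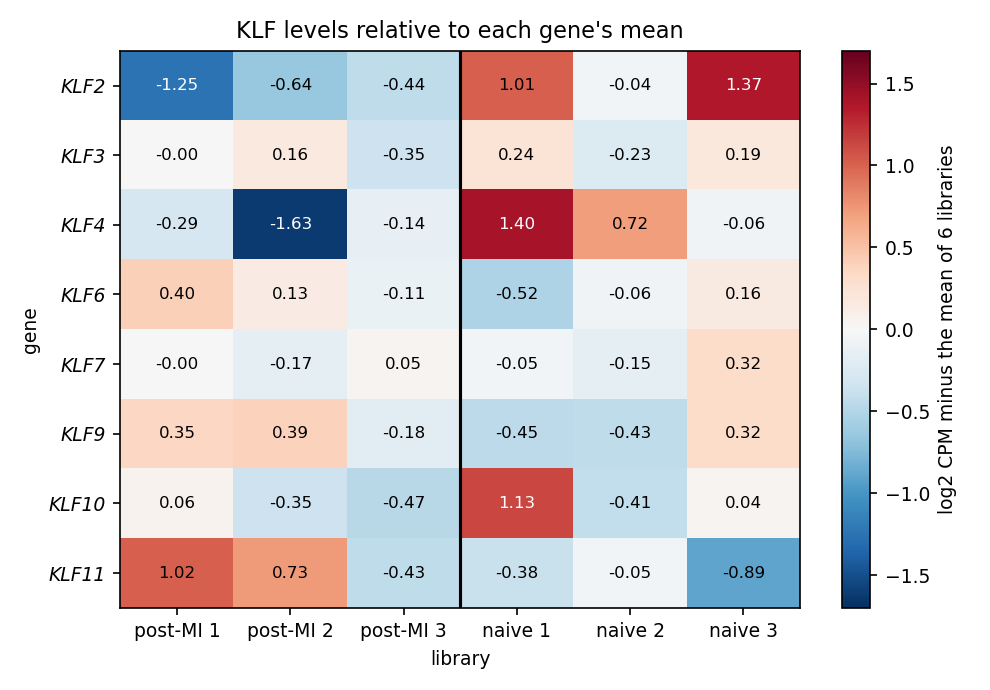
Log2 CPM of each KLF gene (rows) in each library (columns, post-MI left of the line and naive right of it) minus that gene's mean over the 6 libraries, in colour and as printed values. KLF2 runs from -1.25 in post-MI replicate 1 to 1.37 in naive replicate 3, KLF4 from -1.63 in post-MI replicate 2 to 1.40 in naive replicate 1, and KLF11 is at 1.02 in post-MI replicate 1 and at -0.89 in naive replicate 3.

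The 3 genes most like KLF2 by this measure were LRP8, a lipoprotein receptor, LGALS3, which encodes galectin-3, and TXNRD1, the cytosolic thioredoxin reductase, at differences of 0.20, 0.22 and 0.25. LRP8 was at 11.3, 15.2 and 21.8 CPM in post-MI replicates 1, 2 and 3, against 49.9, 32.7 and 51.9 CPM in naive replicates 1, 2 and 3. As for KLF2, its lowest level was in post-MI replicate 1 and the lowest naive level was in replicate 2. LRP8 was picked for likeness to KLF2 over these same libraries, so shared extremes add nothing to that likeness.

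The 3 genes most like KLF4 were PPP1R3C, which targets a phosphatase to glycogen, PTX3, a secreted pentraxin of innate defence, and MFSD2A, a lysophospholipid transporter, at differences of 0.21, 0.27 and 0.28. PTX3 was at 233, 139.7 and 376 CPM in post-MI replicates 1, 2 and 3, against 766, 448 and 248 CPM in naive replicates 1, 2 and 3. Its groups overlapped, and its lowest library, post-MI replicate 2, and highest library, naive replicate 1, were those of KLF4. PTX3 too was picked for likeness over these libraries, so shared extremes add nothing to that likeness.

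**Figure D4:**
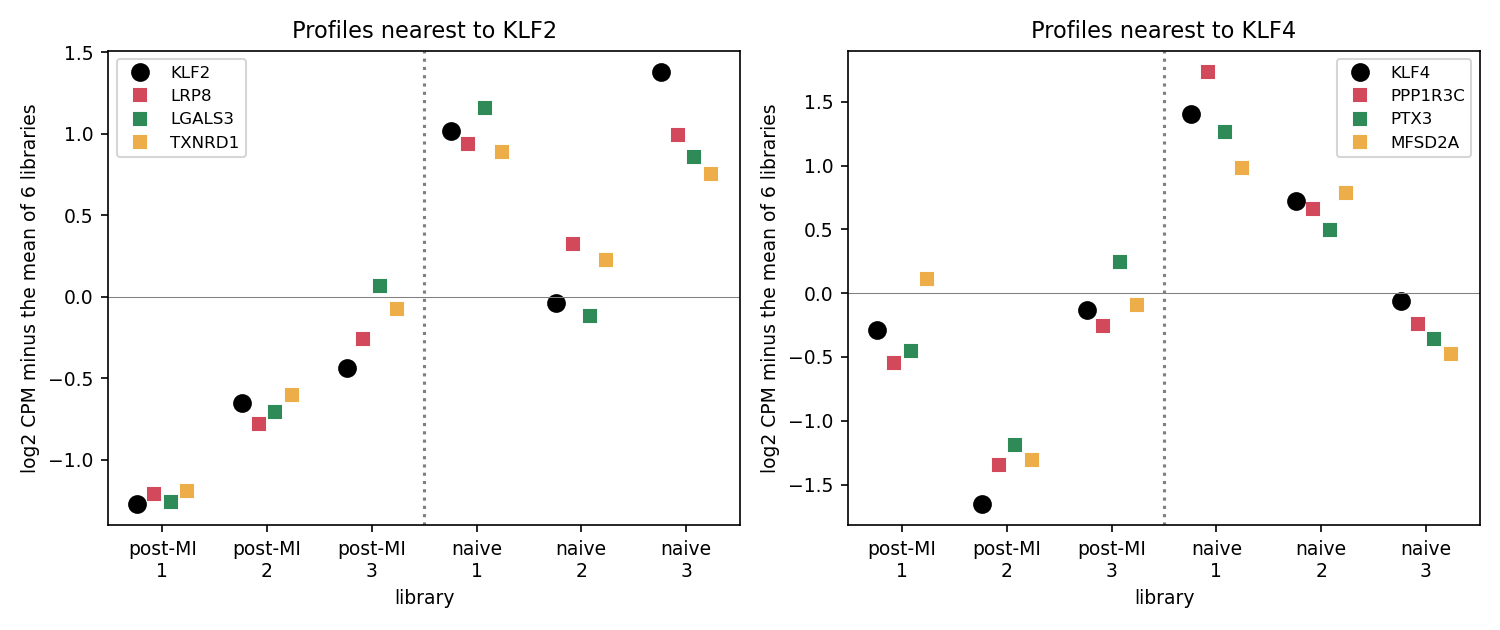
Log2 CPM minus the mean of the 6 libraries (y axis, no prior count) for KLF2 and KLF4 (black circles) and for the 3 genes with the most similar values to each (coloured squares), in post-MI libraries left and naive libraries right of the dotted line. In the KLF2 panel post-MI replicate 1 is lowest for each gene, and in the KLF4 panel post-MI replicate 2 is lowest for each. The squares show genes picked for this likeness.

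The rest of the family lay closer to no difference than KLF2, KLF4 and KLF11. Of the other KLF genes 8 were in the table and 5 passed the count filter, with 3 log2 fold changes above and 2 below 0 (median 0.26), where the median over all genes tested was -0.014. KLF12, a repressor related to KLF3, gave 0.52 ± 0.24 (SE, edgeR adjusted p = 0.570), from 7.50, 6.22 and 4.96 CPM in post-MI replicates 1, 2 and 3 against 4.05, 5.15 and 3.85 CPM in naive replicates 1, 2 and 3. KLF13 gave 0.26 ± 0.17, KLF16 gave 0.29 ± 0.16, KLF5 gave -0.084 ± 0.37 and KLF15 gave -0.32 ± 0.58 (SE). KLF5 turned sign with 1 library dropped, which was post-MI replicate 3 (0.079), naive replicate 1 (0.091) or naive replicate 3 (0.0045). KLF15 turned sign with naive replicate 3 dropped (0.064). The erythroid factor KLF1 had at most 2 reads and KLF8 at most 8 reads in any library, and KLF17, named after its values were seen, had 0 in all 6.

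The SP factors, which bind the same GC-rich sites, had 4 tested genes with log2 fold changes of -0.13 ± 0.15 for SP1, 0.23 ± 0.25 for SP2, -0.16 ± 0.17 for SP3 and 0.080 ± 0.19 for SP4 (SE). SP1 was at 56.5, 44.9 and 45.5 CPM in post-MI replicates 1, 2 and 3, against 57.2, 54.8 and 49.2 CPM in naive replicates 1, 2 and 3. No KLF or SP gene outside the 8 members had groups that did not overlap, where 16.1% of all genes did not overlap.

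The route by which flow switches on KLF2 and KLF4 showed no gene with separated groups, where 16.1% of all genes did not overlap. Of its 15 genes, all tested, edgeR called 0 (0% of all genes), and 0 had an unadjusted p under 0.05, where 8.68% of all genes passed. With so few genes at such shares, these counts say little about the route. The log2 fold change was above 0 for 9 and below 0 for 6 (median 0.067, and 0.0067 with post-MI replicate 3 dropped). The 15 include genes of a complex that restrains KLF2 and KLF4, so these signs pool opposite roles. The genes with the smallest p were MEF2A, a factor that binds the KLF2 promoter, at -0.39 ± 0.25, and KRIT1 and PDCD10, of the cerebral cavernous malformation complex that restrains KLF2 and KLF4, at -0.19 ± 0.13 and -0.17 ± 0.12 (SE). MEF2A was at 20.3, 18.1 and 20.7 CPM in post-MI replicates 1, 2 and 3, against 36.6, 20.3 and 20.7 CPM in naive replicates 1, 2 and 3, and without naive replicate 1 its log2 fold change was -0.050. The kinase ERK5 itself (MAPK7, chosen after its values were seen) gave 0.089 ± 0.15 (SE), and -0.012 with naive replicate 3 dropped.

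Genes that KLF2 or KLF4 is known to raise in endothelium did not go one way. Of 13 listed, 12 were in the table and 10 were tested, edgeR called 0, and the log2 fold change was above 0 for 5 and below 0 for 5 (median -0.025). That median turned sign with naive replicate 1 dropped (0.080) or post-MI replicate 3 dropped (0.072). NQO1, a quinone reductase that is also a target of NRF2, was at 13.1, 42.6 and 81.6 CPM in post-MI replicates 1, 2 and 3, against 646, 183 and 284 CPM in naive replicates 1, 2 and 3. Its groups did not overlap, and its log2 fold change was -3.02 ± 0.73 (SE; adjusted p = 0.381 by edgeR and 0.0239 by DESeq2). Without naive replicate 1 it was -2.35.

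ASS1, which supplies arginine for nitric oxide, was at 0.322, 0.205 and 0.346 CPM in post-MI replicates 1, 2 and 3, against 0.951, 1.85 and 1.18 CPM in naive replicates 1, 2 and 3. These low levels, near the limit of detection in the post-MI libraries, gave -2.14 ± 0.46 as log2 fold change (SE; adjusted p = 0.338 by edgeR). GJA4, encoding the endothelial gap junction protein connexin 37, was at 211, 321 and 56.7 CPM in post-MI replicates 1, 2 and 3, against 4.75, 55.1 and 57.1 CPM in naive replicates 1, 2 and 3. Post-MI replicate 3 lay within the naive range, and the log2 fold change was 2.33 ± 0.93 (SE; adjusted p = 0.566 by edgeR).

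The best-known pair of KLF2 targets, chosen here after their values were seen, also overlapped between groups. NOS3, the endothelial nitric oxide synthase, was at 174, 284 and 309 CPM in post-MI replicates 1, 2 and 3, against 337, 225 and 278 CPM in naive replicates 1, 2 and 3. THBD, the anticoagulant receptor thrombomodulin, was at 228, 194 and 117 CPM in post-MI replicates 1, 2 and 3, against 17.2, 153 and 79.6 CPM in naive replicates 1, 2 and 3. Their log2 fold changes were -0.13 ± 0.26 and 1.11 ± 0.68 (SE), and that of NOS3 turned sign with naive replicate 1 dropped (0.030) or post-MI replicate 1 dropped (0.085). With naive replicate 1 dropped, that of THBD was 0.64.

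Of 10 genes that KLF2 or KLF4 is known to lower, 9 were tested, edgeR called 0, and the log2 fold change was above 0 for 5 and below 0 for 4 (median 0.045). That median was 0.36 with naive replicate 1 dropped, where 2 were below 0, and turned to -0.53 with post-MI replicate 3 dropped. EDN1, the vasoconstrictor endothelin-1, was at 423, 425 and 406 CPM in post-MI replicates 1, 2 and 3, against 83.2, 377 and 243 CPM in naive replicates 1, 2 and 3. Its groups did not overlap, and its log2 fold change was 0.83 ± 0.47 (SE, edgeR adjusted p = 0.606). With naive replicate 1 dropped this was 0.44. SELE (E-selectin), which captures leukocytes, gave 1.74 ± 1.04 (SE), and -0.53 without post-MI replicate 3, where it stood at 40.5 CPM against at most 7.38 CPM in every other library. The cytokine gene IL6 gave -1.58 ± 0.94 (SE), and 0.50 without naive replicate 1, where it stood at 1102 CPM against at most 196 CPM in every other library.

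**Figure D5:**
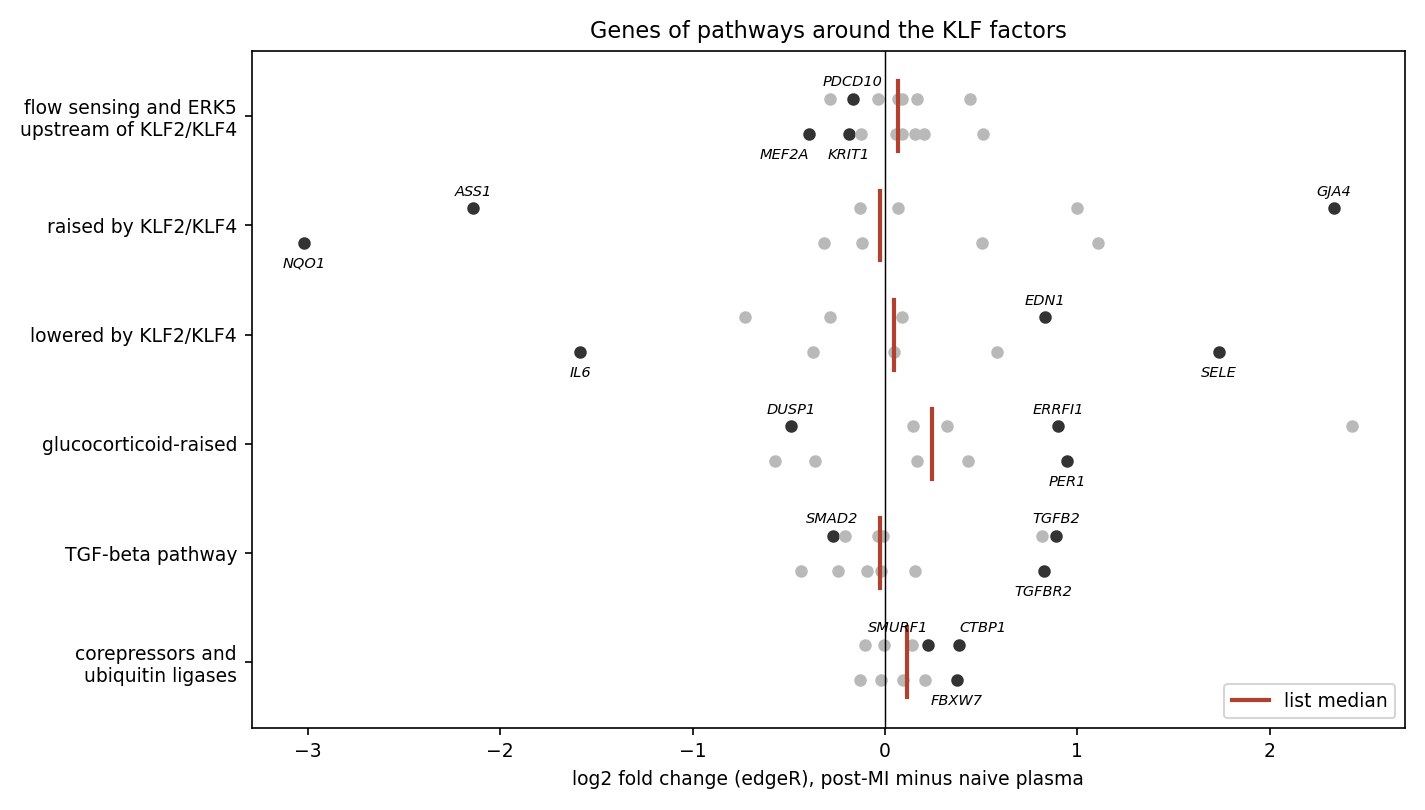
Log2 fold change by edgeR (x axis, post-MI minus naive plasma) of each tested gene in 6 lists around the KLF factors, with the 3 genes of smallest p in each list named in black, the others grey, and a red line at the list median. The medians lie between -0.027 and 0.24, and among genes raised by KLF2 or KLF4 the values run from -3.02 for NQO1 to 2.33 for GJA4.

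The list of glucocorticoid-raised genes set beside KLF9 had 7 positive and 3 negative log2 fold changes (10 tested, median 0.24, 0 called by edgeR). It also holds the glucocorticoid receptor gene NR3C1, named after its values were seen, which is not itself such a gene. NR3C1 was among the negative values, at -0.36 ± 0.17 (SE). Of the 10 genes, groups did not overlap for 4 in the higher direction and for 2, NR3C1 among them, in the lower. Over all genes these shares were 8.32% and 7.82%. An unadjusted p under 0.05 by edgeR was reached by 3 genes with positive and 2 with negative values, where 8.68% of all genes passed. ERRFI1, a brake on EGF receptor signalling, was at 100.01, 75.8 and 90.0 CPM in post-MI replicates 1, 2 and 3, against 55.7, 41.6 and 45.2 CPM in naive replicates 1, 2 and 3. Its groups did not overlap, its log2 fold change was 0.90 ± 0.17 (SE, edgeR adjusted p = 0.300), and DESeq2 called it (adjusted p = 0.00244). The clock gene PER1 gave 0.95 ± 0.32 and the phosphatase gene DUSP1 gave -0.49 ± 0.19 (SE). The groups of PER1 did not overlap, and those of DUSP1 did. KLF9 itself, described above, had its groups overlap.

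The list of TGF-beta pathway genes set beside KLF10 and KLF11 had 4 positive and 8 negative log2 fold changes (12 tested, 0 called by edgeR). The median was -0.027, and -0.041 with post-MI replicate 3 dropped. Among the negative values were SMAD7 (-0.24) and SKIL (-0.21), named after their values were seen. Both restrain the pathway, so these signs pool opposite roles. The ligand TGFB2 was at 57.3, 53.3 and 52.5 CPM in post-MI replicates 1, 2 and 3, against 14.7, 40.5 and 33.0 CPM in naive replicates 1, 2 and 3. Its log2 fold change was 0.89 ± 0.34 (SE; adjusted p = 0.566 by edgeR), and 0.58 without naive replicate 1. The receptor TGFBR2 gave 0.83 ± 0.36, and 0.49 without naive replicate 1, and SMAD2 gave -0.27 ± 0.13 (SE). All 3, named for having the smallest p in the list, had groups that did not overlap. In the whole list of 12 this held for 2 genes in the higher and 1 in the lower direction. Over all genes the shares were 8.32% and 7.82%.

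Among the corepressors and ubiquitin ligases that act on KLF proteins, 6 of 10 tested genes had a positive log2 fold change (median 0.12, 0 called by edgeR). FBXW7, the substrate receptor of a ligase that marks KLF2 for degradation, was at 26.3, 25.3 and 20.1 CPM in post-MI replicates 1, 2 and 3, against 17.2, 19.9 and 18.4 CPM in naive replicates 1, 2 and 3. Its groups did not overlap, by a narrow margin, and its log2 fold change was 0.37 ± 0.16 (SE, edgeR adjusted p = 0.566). CTBP1, the corepressor used by KLF3, gave 0.39 ± 0.18 and the ligase gene SMURF1 gave 0.22 ± 0.14 (SE).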

How the data were processed

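Per the labels' protocols the library kit kept strand, and both ends were sequenced for 150 bp. The submitters' processing notes name the build Oar_v3.1, the aligner STAR 2.5.2b, the counter featureCounts 2.0.0, and DESeq2 1.26.0; neither the annotation nor the strand setting of the counting is given in the sources used here. For the whole series, the deposited table holds raw counts per gene symbol, and the signal in the deposited file of each sample is equal to those counts over 1 factor per library within 0.01% (18864 of 18865 genes in naive replicate 1, all in the others).

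These counts were fitted with edgeR 4.0.16 in R 4.3.3, after its filterByExpr (minimum count 10, minimum total 15) and TMM scaling. The quasi-likelihood test set post-MI against naive plasma, adjusted by Benjamini-Hochberg over 14326 genes at 0.05. A log2 fold change is post-MI minus naive, its SE is the absolute value over the square root of F, and CPM uses TMM-scaled library sizes. CPM is not divided by gene length, so levels are compared between libraries, not between genes. Alternatives were DESeq2 1.42.0, limma-voom (limma 3.58.1), other scalings and filters, the replicate number as a block and left-out libraries.

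The members and lists were chosen with earlier results of these data known. Named genes are the members, every KLF or SP gene with a count, the 3 smallest p per list, and the 3 genes nearest to KLF2 and to KLF4 among tested genes with a mean log2 CPM from 1 upward and no provisional locus name (prior count 2); others are marked as chosen after their values were seen.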

Additional observations from a re-analysis of the deposited data

How the results depend on the processing

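Calls of edgeR among the KLF members, 0 of 8, did not move with DESeq2 size factors, plain library totals, another count filter or no filter, limma-voom or a left-out library. The DESeq2 Wald test called 1 member and 221 genes in all. Chosen after seeing the data were the edgeR fit without naive replicate 1 and post-MI replicate 3, and DESeq2 with a block or with a library left out. With single libraries left out, in edgeR and DESeq2 together, calls ran from 0 to 2 members and from 0 to 388 genes (by DESeq2 70, 82 and 296 without post-MI replicates 1, 2 and 3, and 252, 388 and 255 without naive replicates 1, 2 and 3), members at an unadjusted p under 0.05 from 1 to 4, members with a negative log2 fold change from 4 to 5, members without overlap from 2 to 4, and the members' median from -0.22 to 0.0011 (-0.11 with all libraries). Without naive replicate 1 and post-MI replicate 3, edgeR called 3 genes and 0 members. In that fit the log2 fold change was negative for 3 members, 4 did not overlap, and the median was 0.077. The log2 fold change of KLF3 then turned to 0.10 and that of KLF10 to 0.052. Groups of fewer libraries separate more easily, and the share of all genes without overlap was not counted with libraries left out. The members without overlap in those fits are therefore not a result about the members. Without post-MI replicate 3 alone KLF3 turned to 0.0044 (DESeq2 0.010), and without naive replicate 3 KLF7 turned to 0.063 (DESeq2 0.069). Over the fits without 1 library KLF3 ran from -0.26 to 0.010, KLF7 from -0.18 to 0.069 and KLF10 from -0.92 to -0.056. The cause was not tested.

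With the replicate number as a block, edgeR called 0 genes, and KLF2 gave -1.58 (adjusted p = 0.482). KLF11 then gave 0.89, with its SE down from 0.38 to 0.22 (edgeR unadjusted p = 0.00989, adjusted p = 0.497). KLF10 gave -0.51, with its SE down from 0.39 to 0.25 (edgeR adjusted p = 0.612). The SEs of KLF3, KLF6 and KLF9 rose. DESeq2 with the block called 209 genes and 1 member, KLF2 (adjusted p = 0.00769). Deviations from group means of same-numbered libraries correlated at 0.15, -0.11 and 0.092 for replicates 1, 2 and 3. Post-MI replicate 2 correlated best with naive replicate 3 (0.24), while post-MI replicates 1 and 3 each correlated best with the naive library of the same number. Deviations from a group's own mean depend on each other, so these values cannot decide if the numbers mark pairs. The numbers were not read as pairs because the labels do not say that they are.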
